A study of Mus musculus with 2 samples.

Results

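Tubulin isotypes are the products of separate genes that encode closely related forms of alpha- and beta-tubulin, the proteins that pair into the dimers from which microtubules are built. The genes described here are Tuba1a, Tuba1b, Tuba1c, Tuba4a and Tuba8 for alpha-tubulin, and Tubb2a, Tubb2b, Tubb4b, Tubb5 and Tubb6 for beta-tubulin. They were found by their mouse Ensembl identifiers in the gene and transcript tables of heart RNA, and all 10 were present among 43346 Ensembl genes (69691 features in all). Total RNA was sequenced from 2 single hearts of newborn mice of the inbred strain B6NCrl on postnatal day 0, with no treatment named in the labels. Replicate 1 was the heart of pup 2 and replicate 2 that of pup 3, both of pregnancy 1, and both carry the same donor identifier although the labels describe separate pups. Each library was made from 10 ng of RNA extracted with the Ambion mirVana kit, with RNA longer than 200 bases kept and spike-in RNAs added. Sex was not collected. There was 1 group (n = 2), so genes were compared with each other inside each heart, and each gene was compared across the littermates.

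In the newborn heart, microtubules carry cargo, position organelles and form the spindle of cells that still divide. Isotypes share a conserved globular body and differ most in the short acidic tail at the carboxyl end, where enzymes remove or add back a terminal tyrosine and attach chains of glutamate or glycine. Cells also adjust tubulin mRNA to the amount of free dimer: Ttc5 binds the amino terminus of newly made alpha- and beta-tubulin on the ribosome and starts the decay of their mRNAs. Heart tissue is a mixture of cells, and in bulk RNA fewer cells of a type and less RNA per cell cannot be told apart.

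Of 46151722 expected counts in replicate 1 and 44707283 in replicate 2, the 10 tubulin genes together received 101640 and 94223. The smallest two-sided p that an exact sign-flip test of 2 animals allows is 0.5, so no test was made, and an SD given here is the spread between these littermates. The tissue label was checked against 5 cardiomyocyte markers (Myh6, Tnnt2, Actc1, Tnni3 and Ryr2), all of which were detected, with summed levels of 37789 and 33841 TPM. This check cannot exclude RNA of other tissues, and lung markers that differed between the hearts are given below. TPM is transcript abundance scaled by length and depth, and detected means a level of at least 1 TPM in both libraries.

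The 5′ ends of the coding sequences are shown first, because the products of these bases are what the autoregulation machinery reads. Capitals mark the first 12 coding bases, which encode the first residues of each protein. Sequences are those of GENCODE M21 transcripts on mm10, written 5′ to 3′ on the coding strand.
Tuba1b: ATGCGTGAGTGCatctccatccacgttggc
Tuba8: ATGAGGGAATGCatatcggtccatgtgggt
Tubb5: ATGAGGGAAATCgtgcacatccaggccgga
Tubb2b: ATGCGAGAGATCgtgcacattcaggcgggc
Over these 30 bases Tuba1b was identical to Tuba1c and differed from Tuba1a at 1 position, with 29 matching bases. Tuba1b matched Tuba8 at 21 of 30 bases and Tubb5 at 17. In the transcript read for each alpha-tubulin member, the first intron within the coding sequence lay directly after the first 3 coding bases. Introns before the coding sequence were not examined.

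The 3′ ends of the coding sequences are shown because they encode the acidic tail that the modifying enzymes act on. Capitals mark the last sense codon and the stop codon, and each stretch is 60 bases long with its mm10 position. Tuba1a, Tuba1b and Tubb6 are named only.
Tuba1c, chr15:99037950-99038009, plus strand: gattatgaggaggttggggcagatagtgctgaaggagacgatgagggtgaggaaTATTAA
Tuba4a, chr1:75215622-75215681, minus strand: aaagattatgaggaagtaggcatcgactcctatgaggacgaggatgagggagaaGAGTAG
Tuba8, chr6:121226020-121226079, plus strand: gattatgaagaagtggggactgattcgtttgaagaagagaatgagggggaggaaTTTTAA
Tubb2a, chr13:34074468-34074527, minus strand: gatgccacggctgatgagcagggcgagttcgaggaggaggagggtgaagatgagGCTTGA
Tubb2b, chr13:34127471-34127530, minus strand: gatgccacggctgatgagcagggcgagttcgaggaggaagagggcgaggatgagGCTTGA
Tubb4b, chr2:25222308-25222367, minus strand: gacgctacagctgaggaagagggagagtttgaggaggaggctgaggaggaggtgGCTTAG
Tubb5, chr17:35834982-35835041, minus strand: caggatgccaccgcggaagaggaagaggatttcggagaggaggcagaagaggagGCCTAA
The last codon encodes a tyrosine in Tuba1a, Tuba1b and Tuba1c. It encodes glutamate (gag) in Tuba4a and phenylalanine (ttt) in Tuba8, so the tyrosine that the tyrosination cycle removes is not encoded at the end of these genes. Codon 40, where the lysine acetylated by Atat1 lies, is aag (lysine) in Tuba1a, Tuba1b, Tuba1c and Tuba4a and gcc (alanine) in Tuba8. The tails of Tubb2a, Tubb2b, Tubb4b and Tubb5 end in an alanine codon.

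Some of these genes are nearly the same in their coding sequence. Tuba1c was less like its close relatives, Tuba1a and Tuba1b, at the tail than over the whole coding sequence. Among the alpha-tubulin genes, aligned coding identity ran from 79.2% (Tuba1a against Tuba8) to 98.3% (Tuba1a against Tuba1b), with a median of 85.0% over 10 pairs. Tuba1c was 97.1% identical to Tuba1a and 97.9% to Tuba1b. With the last 60 bases of each gene aligned, however, Tuba1c matched Tuba1a at 62.1% and Tuba1b at 60.6%. Gaps count as mismatches in these values. The coding sequence of Tuba1c (1350 bases) is shorter than those of Tuba1a and Tuba1b (1356 bases each). The 60-base windows therefore start at different places, which lowers the match. Among the beta-tubulin genes, identity ran from 80.3% (Tubb5 against Tubb6) to 96.5% (Tubb2a against Tubb2b). The tail did not set Tuba1a apart from Tuba1b. Tubb2a and Tubb2b also stayed alike in the tail, at 95.0%, and shared an unbroken identical run of 551 bases. Between alpha- and beta-tubulin genes, identity was 54.8% to 58.5% over 25 pairs.

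Tubulin mRNA in these hearts was carried mainly by 4 genes, Tuba1b and Tuba1a for alpha-tubulin and Tubb5 and Tubb4b for beta-tubulin. All 10 genes were detected in both hearts, against 54.5% of 21474 protein-coding genes. Their levels spanned 99.7-fold in replicate 1 and 167-fold in replicate 2, from Tuba1b to Tuba8. Together they made up 1554 and 1450 TPM, or 0.150% ± 0.0073 (SD, n = 2) of all transcript abundance.

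Tuba1b, a widely expressed alpha-tubulin (ENSMUSG00000023004.8, chr15:98931425-98934565, minus strand), was the most abundant member. Its level was 459.6 TPM in replicate 1 and 455 TPM in replicate 2 (457 ± 3.42, SD, n = 2), from 28772 and 28129 expected counts. The level was nearly the same in both hearts, and it ranked 264 among 11699 detected protein-coding genes. Tuba1a, the alpha-tubulin best known from developing neurons (ENSMUSG00000072235.5, chr15:98949837-98953703, minus strand), was next at 351 and 345 TPM (348 ± 3.76, SD, n = 2), rank 349. Tuba1b was 1.31-fold above Tuba1a in replicate 1 and 1.32-fold in replicate 2, and the deposited credibility intervals of the genes did not overlap in either heart.

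Tuba4a, an alpha-tubulin whose gene lacks the terminal tyrosine codon (ENSMUSG00000026202.9, chr1:75214228-75219865, minus strand), stood at 107 and 85.5 TPM (96.2 ± 15.1, SD, n = 2), rank 1172. Tuba1c, the third of the neighbouring alpha-tubulin genes on chromosome 15 (ENSMUSG00000043091.8, chr15:99029891-99038110, plus strand), stood at 68.9 and 52.1 TPM (60.5 ± 11.9, SD, n = 2), rank 1763. Both were higher in replicate 1, with intervals of the hearts apart. Tuba8, a divergent alpha-tubulin spread over 5 exons where the other members have 4 (ENSMUSG00000030137.7, chr6:121210696-121226854, plus strand), was the lowest member at 4.61 and 2.73 TPM (3.67 ± 1.33, SD, n = 2), from 374 and 219 counts. Its intervals were 4.09 to 5.02 TPM in replicate 1 and 2.35 to 3.06 TPM in replicate 2 and did not overlap.

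Tubb5, a widely expressed beta-tubulin (ENSMUSG00000001525.10, chr17:35833921-35838306, minus strand), led the beta-tubulin genes at 203 and 196 TPM (199 ± 5.02, SD, n = 2), rank 599. Tubb4b, also widely expressed and a main beta-tubulin of cilia (ENSMUSG00000036752.4, chr2:25222160-25224702, minus strand), followed at 186 and 164 TPM (175 ± 15.2, SD, n = 2), rank 671. Tubb5 exceeded Tubb4b by only 1.09-fold in replicate 1 and 1.19-fold in replicate 2, with intervals apart in both.

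Tubb2a (ENSMUSG00000058672.6, chr13:34074274-34078007, minus strand) stood at 79.7 and 68.7 TPM (74.2 ± 7.79, SD, n = 2), rank 1462. Tubb6, a beta-tubulin known to be raised in regenerating and dystrophic muscle (ENSMUSG00000001473.6, chr18:67390717-67402749, plus strand), stood at 78.6 and 67.3 TPM (73.0 ± 7.95, SD, n = 2), rank 1480. Both were higher in replicate 1, and within a heart their intervals overlapped. Tubb2b, the beta-tubulin of developing neurons that neighbours Tubb2a (ENSMUSG00000045136.5, chr13:34126748-34130466, minus strand), was far lower at 16.4 and 14.2 TPM (15.3 ± 1.53, SD, n = 2), rank 5132. Tubb2a was 4.87-fold above Tubb2b in replicate 1 and 4.83-fold in replicate 2.

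**Figure D1:**
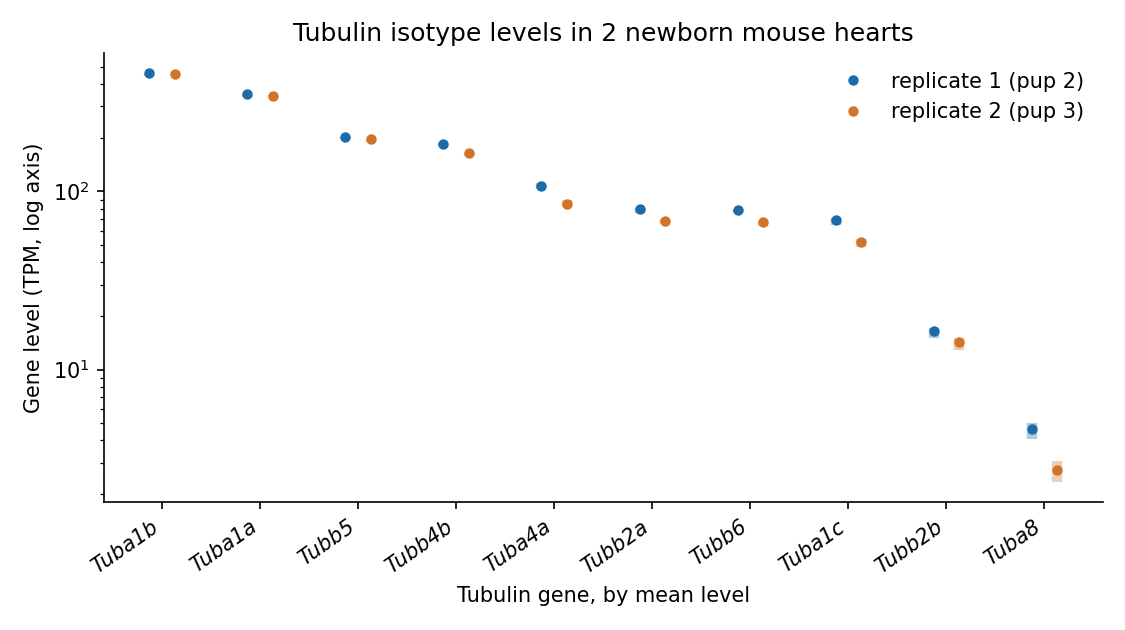
Gene level in TPM (log axis) of each tubulin member in replicate 1 (pup 2) and replicate 2 (pup 3), ordered by mean level, with points for the deposited TPM and pale bars for the deposited credibility interval. The order is the same in both hearts, from Tuba1b at 459.6 and 455 TPM to Tuba8 at 4.61 and 2.73 TPM.

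The 10 members stood in the same order in both hearts: Tuba1b, Tuba1a, Tubb5, Tubb4b, Tuba4a, Tubb2a, Tubb6, Tuba1c, Tubb2b, Tuba8. A pair of neighbours counted as separated where the log2 ratio of TPM + 1 had 1 sign in both hearts, exceeded the difference between the hearts, and the credibility intervals were apart in each heart. By this measure 8 of 9 neighbouring pairs were separated. The exception was Tubb2a and Tubb6, whose log2 ratios were 0.02 and 0.03. The widest steps on this scale were from Tuba1c down to Tubb2b (2.01 and 1.80) and from Tubb2b down to Tuba8 (1.63 and 2.03). The files do not state how wide these credibility intervals are meant to be. The deposited TPM lay above its own upper bound for Tuba1b and Tubb5 in replicate 1 and for Tuba1b in replicate 2, while the posterior mean TPM lay inside the bounds for all 10 members in both hearts.

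Because a dimer holds 1 alpha and 1 beta subunit, each gene was also expressed as a share of its own pool, made of all alpha-tubulin or all beta-tubulin genes in the table. The alpha pool summed to 992 and 941 TPM and the beta pool to 566 and 514 TPM. The alpha pool was the larger by 1.75-fold in replicate 1 and 1.83-fold in replicate 2 (1.79 ± 0.056, SD, n = 2).

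Tuba1b supplied 46.3% and 48.3% of alpha-tubulin mRNA and Tuba1a 35.4% and 36.7%. Together they held 81.7% and 85.0%. Tuba4a held 10.8% and 9.09%, Tuba1c 6.95% and 5.53%, and Tuba8 0.465% and 0.290%. The 3 genes whose last codon encodes tyrosine, Tuba1a, Tuba1b and Tuba1c, thus made up 88.7% and 90.5% of the alpha pool (89.6% ± 1.33, SD, n = 2).

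The beta pool was less concentrated. Tubb5 held 35.8% and 38.1% and Tubb4b 32.8% and 31.9%, together 68.6% and 70.0%. Tubb2a held 14.1% and 13.4%, Tubb6 13.9% and 13.1%, and Tubb2b 2.89% and 2.76%. Genes outside the 10 members added 0.118% and 0.0967% to the alpha pool, and 0.523% and 0.780% to the beta pool.

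**Figure D2:**
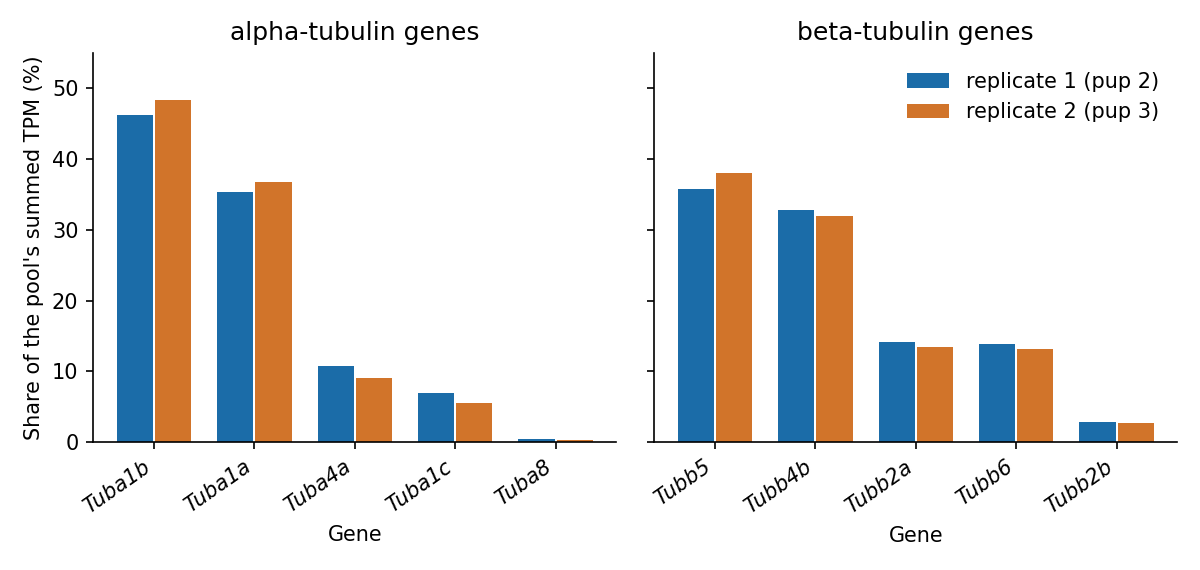
Share of the summed TPM of all alpha-tubulin genes (left) or all beta-tubulin genes (right) held by each member, in percent, with a bar for each heart. Tuba1b and Tuba1a stand far above the other alpha-tubulin genes, while Tubb5 (35.8% and 38.1%) and Tubb4b (32.8% and 31.9%) are close to each other on this scale.

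The near-identity of several members bears on how their reads could be assigned, so the share of each gene's distinct 31-base words found in other quantified genes was set beside the posterior SD of its count. Tuba1a, Tuba1b and Tuba1c had 68.1%, 68.7% and 54.3% of their words elsewhere. For Tuba1a and Tuba1b the gene sharing most was Tuba1c (54.7% and 59.0%), and for Tuba1c it was Tuba1b (49.0%). Among pseudogenes, Gm17383 shared most with all 3, with 53.6% of the words of Tuba1a, 51.3% of Tuba1b and 39.3% of Tuba1c.

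Tubb2a shared 51.1% of its words with Tubb2b, and Tubb2b shared 35.2% with Tubb2a. Tubb4b shared little with other members (0.24%), but 41.0% of its words occur in the processed pseudogene Tubb4b-ps1. Tubb5 (3.50%) and Tubb6 (3.20%) were nearly free of shared words. The gene holding most of them was Tubb2a for Tubb5 (0.75%) and Tubb3 for Tubb6 (1.79%). The pseudogenes sharing most held little: Gm8916 for Tubb2a (0.19%) and Tubb2b (0.13%), Gm11892 for Tubb5 (0.36%), Gm8908 for Tubb6 (0.25%) and Gm12201 for Tuba4a (1.98%).

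In Tuba4a and Tuba8, most of the shared words lay in a gene on the opposite strand. Of the words of Tuba4a, 35.6% lie in Stk16, a protein kinase gene that overlaps it by 1379 bases and was measured at 43.6 and 47.3 TPM. Of the words of Tuba8, 15.2% lie in the antisense gene Gm15856, which overlaps it by 2462 bases and received 0 and 2.74 counts. Tubb4b overlaps Fam166a by 121 bases, and that gene received 0 and 5.17 counts. In the M21 annotation, Gm49450 lies on the same strand as Tuba1a and Tuba1b and overlaps them by 3715 and 2429 bases, and the antisense gene Gm41396 overlaps Tuba1b by 241 bases. Neither was matched as a gene in the deposited tables. The only transcript that M21 gives to Gm49450 by this identifier was counted there under Tuba1a, with 0 and 7.56 counts. The posterior SD of the count was small for both members, 0.0505% and 0.095% of the posterior mean for Tuba4a and 0.169% and 0.544% for Tuba8. No source used here says whether counting used strand. Without strand, reads from the stretches that such genes share cannot be told apart.

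The posterior SD of the count, which measures the error of assigning reads and not of sampling them, was largest for Tubb2b (2.00% and 2.18% of the posterior mean) and Tuba1c (1.48% and 1.77%). It was 0.365% and 0.363% for Tuba1a and 0.323% and 0.300% for Tuba1b, and it was 0 for Tubb5 and Tubb6. Tubb2a and Tubb2b had the same posterior SD in counts, 22.7 in replicate 1 and 21.3 in replicate 2. No member passed 10%. Even so, the levels of Tuba1a, Tuba1b, Tuba1c, Tubb2a and Tubb2b rest on how reads common to near-identical genes were divided, and are uncertain to that extent.

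**Figure D3:**
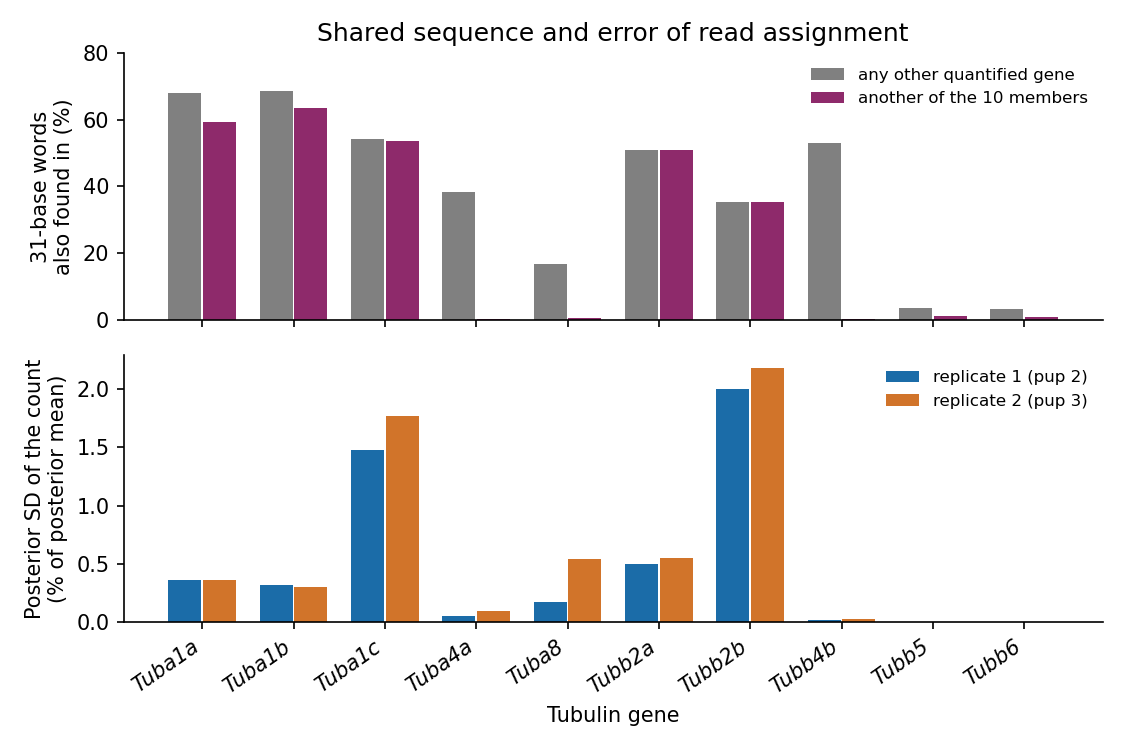
Top, percent of each member's distinct 31-base words also found in any other quantified gene (grey) or in another of the 10 members (purple); bottom, posterior SD of the gene count as a percent of its posterior mean in each heart. Tuba1a, Tuba1b, Tuba1c, Tubb2a and Tubb2b share words with other members, and the largest posterior SDs are those of Tubb2b and Tuba1c.

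Processed pseudogenes of tubulins took few reads. Of 20 pseudogenes that share a word with a member, 6 had at least 50% of their words in members. These 6 received 129 and 132 counts in all, equal to 0.127% and 0.140% of the members' own counts. The highest was Gm14150, a copy closest to Tuba1b, at 1.78 and 1.34 TPM. Gm17383 was at 0.50 and 0.83 TPM and Tubb4b-ps1 at 0.15 and 0.19 TPM, and 1 of the 6 was listed at 0 in both hearts.

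The members were quantified as 24 annotated transcripts, and the main transcript of each gene was the same in both hearts for all 10. In Tuba1c, Tuba8, Tubb2a, Tubb2b and Tubb6 a single transcript was annotated. In Tuba1a, Tuba1b, Tubb4b and Tubb5 the main transcript held at least 98.99% of the gene's TPM in both hearts.

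Tuba4a was the exception, with 8 annotated transcripts, of which 6 received counts in both hearts. Tuba4a-201 (2083 bases) held 40.4% of the gene's TPM in replicate 1 and 48.2% in replicate 2. Tuba4a-206 (1205 bases) held 35.5% and 33.5%, and the retained-intron transcript Tuba4a-205 (815 bases) 12.1% in both. The coding sequence of Tuba4a, with the tail printed above, was read from Tuba4a-202 (2840 bases), which held 5.17% and 4.82%. It was the first transcript, by mean share of the gene, found to have a complete reading frame.

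The short transcript Tuba4a-204 (845 bases) had 203 counts and 6.69% of the gene's TPM in replicate 1 and 30.2 counts and 1.25% in replicate 2. By expected counts, which are not divided by length, Tuba4a-201 held 54.4% and 61.5%. Part of the words of Tuba4a lie in the overlapping Stk16, as given above, and whether that bears on the division among its transcripts was not tested.

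**Figure D4:**
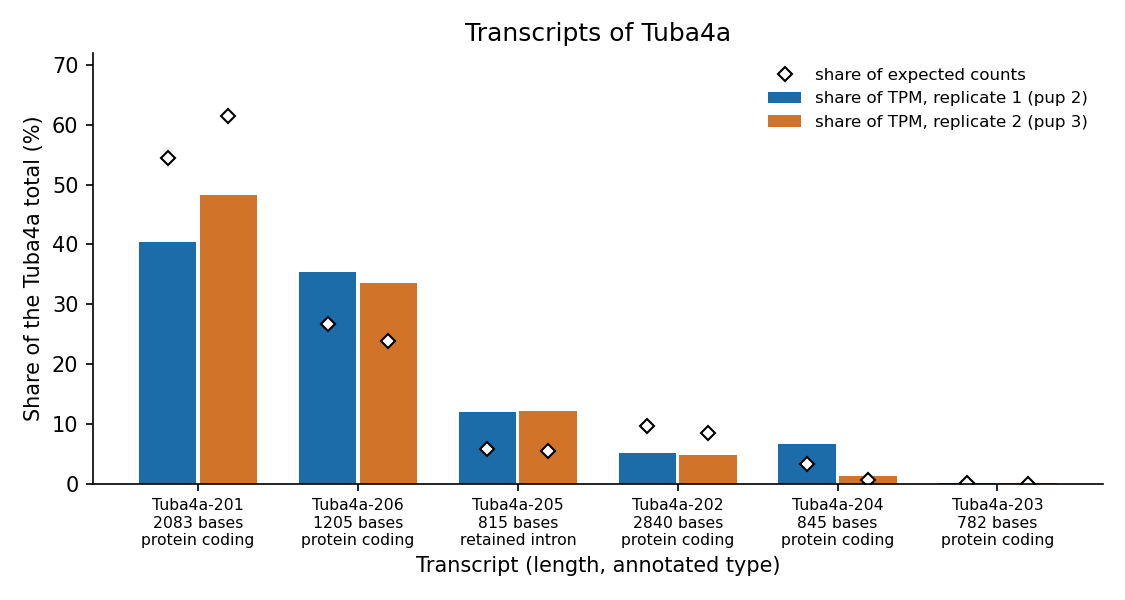
Share of the Tuba4a total in percent for each transcript with counts in both hearts, with bars for the share of TPM in each heart and diamonds for the share of expected counts. Tuba4a-201 leads on both measures (40.4% and 48.2% of TPM), and Tuba4a-204 is at 6.69% in replicate 1 and 1.25% in replicate 2.

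Between the littermates, Tuba8 and Tuba1c were lower in replicate 2, by 1.66-fold and 1.31-fold, and Tuba4a and the beta-tubulin genes were lower by less. Tuba1b and Tuba1a did not differ beyond their error. The difference was the log2 ratio of scaled counts, replicate 2 minus replicate 1, with an SE that combines counting error and assignment error and says nothing of other animals. All 10 ratios were below 0 (7 of 10 when scaled by the spike-in RNAs), against 50.4% of the 13463 genes tested, which had mean counts of at least 50. The median over members was -0.19, against -0.001 over all genes tested. The genes are not independent of each other, and no test was made.

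Among alpha-tubulin genes the ratio was -0.73 ± 0.12 (SE) for Tuba8, -0.39 ± 0.05 for Tuba1c and -0.23 ± 0.03 for Tuba4a. It was -0.01 ± 0.02 for Tuba1a and -0.001 ± 0.014 for Tuba1b. Among beta-tubulin genes it was -0.21 ± 0.03 for Tubb6, -0.20 ± 0.03 for Tubb2a, -0.19 ± 0.08 for Tubb2b, -0.16 ± 0.02 for Tubb4b and -0.04 ± 0.02 for Tubb5.

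At a threshold of 1.2-fold, Tuba8 and Tuba1c were lower in replicate 2, 2 of 10 members against 7.26% of all genes tested. No member was higher by 1.2-fold, against 7.97%, and none differed by 2-fold, against 0.498%. The absolute ratio of Tuba8 exceeded that of 98.9% of genes tested, with the lowest count among the members. The median absolute ratio of members was 0.19, against 0.10 over all genes.

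The credibility intervals of the hearts were apart, with replicate 2 lower, for 7 of 10 members, against 10.6% of all genes tested. They overlapped for Tuba1a, Tuba1b and Tubb2b. The bounds are on deposited TPM, with no other scaling between the libraries. Tubb5, among the members with intervals apart, had a log2 ratio of -0.04, and of 0.03 when scaled by the spike-in RNAs. Intervals are narrower for genes with more reads. Among genes with mean counts of at least 1000, a group chosen after the values were seen, the share was 17.4%, and 6 of the 9 members in that group had intervals apart.

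**Figure D5:**
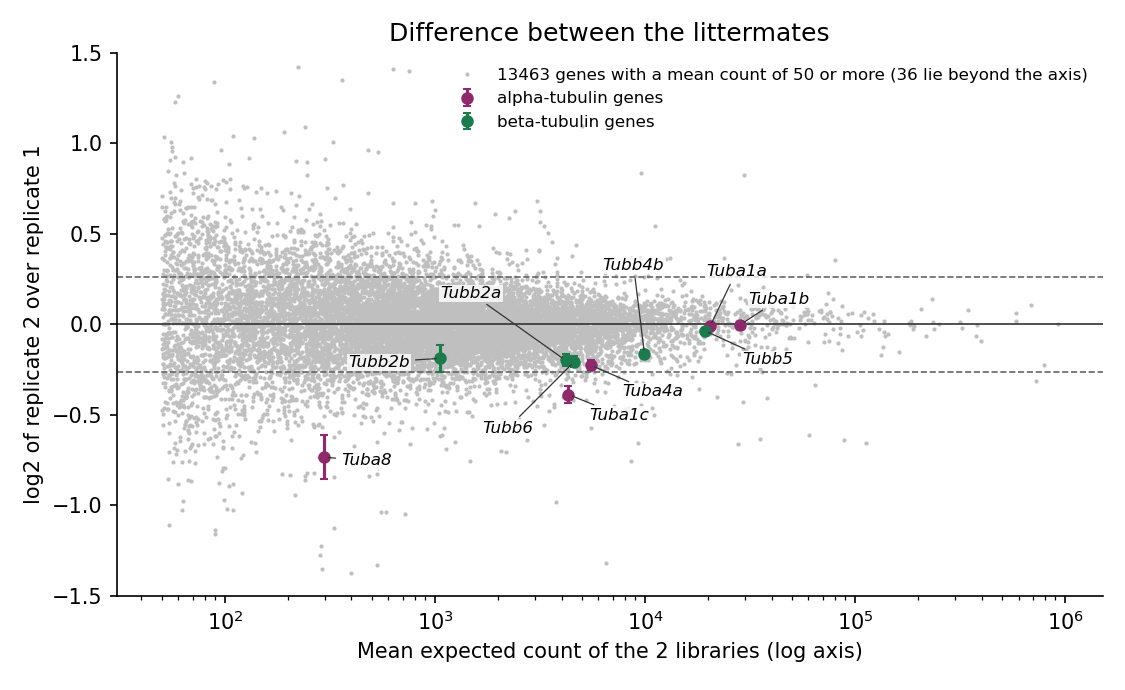
Log2 ratio of replicate 2 over replicate 1 against the mean expected count (log axis) for 13463 genes in grey (36 lie beyond the axis) and for the members in colour, with bars for the SE of counting and assignment and dashed lines at 1.2-fold. Tuba1b and Tuba1a lie on the zero line, and Tuba8 (-0.73) and Tuba1c (-0.39) lie below the lower dashed line.

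The direction of the smallest ratios depended on scaling. With counts scaled by the ERCC spike-ins, 7 of 10 members were below 0, and Tuba1a, Tuba1b and Tubb5 were at 0.05, 0.06 and 0.03. The spike-ins had only 262 and 246 counts, a log2 ratio of -0.09 ± 0.13 (SE). Because all genes move together under a change of scaling, the members' median stayed 0.19 below that of all genes. For Tuba4a the ratio of TPM was -0.32, beyond 1.2-fold, where the ratio of counts was -0.23.

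Markers of other cell types also differed between the hearts. All 5 erythroid markers were lower in replicate 2 by more than 1.2-fold, against 7.26% of all genes tested. Among them were Hba-a1, Hba-a2, Hbb-bs and Alas2. The median log2 ratio of the 5 was -0.64, with summed levels of 12332 and 7911 TPM. Of 6 lung epithelial markers, summed at 30.6 and 639 TPM, Scgb3a2 was at 2.96 and 563 TPM and Sftpc at 25.5 and 0.34 TPM, while Nkx2-1 was at 0.04 TPM in both. The 6 markers of ciliated airway cells, which are rich in Tubb4b, summed to 3.21 and 5.93 TPM. Most of that sum was Rsph1 (1.25 and 1.74 TPM) and Cfap126 (1.66 and 2.61 TPM), while Foxj1 was at 0.03 and 0.78 TPM. All 6 were higher in replicate 2, where 50.4% of all genes tested were lower. Only 2 of them, Rsph1 and Cfap126, had mean counts of at least 50. Both were higher by 1.2-fold, against 7.97% of all genes tested. Foxj1 had 3 and 74 counts.

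Of the 5 cardiomyocyte markers, 4 were lower in replicate 2, against 50.4% of all genes tested. By 1.2-fold 1 was lower, against 7.26%. The count was also 4 of 5 for endothelial markers and for smooth muscle and pericyte markers. The 5 smooth muscle and pericyte markers summed to 1189 and 946.9 TPM, mostly Acta2 (1130 and 884 TPM), while Tagln was at 32.3 and 38.2 TPM. Sums were 184 and 172 TPM for 5 markers of dividing cells, 587 and 637 TPM for 5 fibroblast markers, and 186 and 174 TPM for 5 endothelial markers. The 5 macrophage markers summed to 56.8 and 64.8 TPM, the 5 platelet markers to 55.5 and 60.6, the 5 neuron markers to 44.3 and 50.2 (Uchl1 alone 43.3 and 48.7), the 4 Schwann cell markers to 2.07 and 2.76, and the 5 skeletal muscle markers to 4.86 and 3.14. The neuron markers Snap25 and Syt1 were near 0, at 0.24 and 0.18 TPM and at 0.06 and 0.11 TPM. The part of these cell types in the tubulin levels and in the difference between the hearts was not tested.

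The other tubulin genes were far below the main isotypes, and 5 of 10 were detected. Tubg1, the gamma-tubulin that nucleates microtubules, led at 29.9 and 29.2 TPM, with its paralog Tubg2 at 1.39 and 1.57 TPM. Tubd1 and Tube1, the delta- and epsilon-tubulins of centrioles, were at 6.08 and 7.98 TPM and at 1.02 and 1.05 TPM. Tubb4a, the beta-tubulin of brain and myelinating cells, was at 2.10 and 2.49 TPM.

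Isotypes of restricted tissues were near or under the detection level. Tubb3, the neuronal beta-tubulin, was at 0.30 and 0.97 TPM from 20 and 65 counts. Tubb1, the beta-tubulin of platelets and megakaryocytes, was at 0.56 and 0.55 TPM. The alpha-tubulin gene Tuba3b was at 1.17 and 0.88 TPM, while Tuba3a and Tubal3 received no count in replicate 1 and 1.2 and 1.0 counts in replicate 2.

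Genes listed under tubulin folding were all detected, 13 of 13, and none differed by 1.2-fold between the hearts. The most abundant were the prefoldin subunit Pfdn5 at 260.1 and 272 TPM, the beta-tubulin cofactor Tbca at 179.5 and 192 TPM, and the prefoldin subunit Vbp1 at 111 and 112 TPM. Ttc5, which reads the first residues of nascent tubulin, was at 21.3 and 20.4 TPM.

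All 4 genes of the tyrosination cycle were detected. Svbp, the partner that the detyrosinating vasohibins need, was at 98.2 and 94.7 TPM, the vasohibin Vash2 at 17.8 and 14.3 TPM, and Vash1 at 6.77 and 6.20 TPM. Vash2 was thus the more abundant vasohibin in both hearts, and its log2 ratio was -0.30 ± 0.04 (SE). All 3 genes of the acetylation cycle were detected, with the deacetylase Sirt2 at 45.6 and 45.2 TPM, the acetyltransferase Atat1 at 14.5 and 14.9 TPM, and the deacetylase Hdac6 at 14.0 and 12.2 TPM.

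Of 14 genes that add glutamate or glycine chains to tubulin tails, 8 were detected. The polyglutamylase subunit Tpgs1 led at 34.4 and 35.5 TPM, above the catalytic subunit Ttll1 at 19.6 and 17.7 TPM and the subunit Tpgs2 at 5.04 and 5.69 TPM. Of 6 carboxypeptidases that trim those chains, 3 were detected, Agtpbp1 at 7.89 and 7.49 TPM, Agbl3 at 6.03 TPM in both and Agbl5 at 3.17 and 3.31 TPM.

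Proteins that bind the microtubule lattice were detected for 7 of 9 genes. The most abundant were Map4, the main such protein outside neurons, at 30.2 and 29.6 TPM, Map7d1 at 28.5 and 26.7 TPM and Map1s at 15.8 and 14.2 TPM. Of 12 genes of plus-end binding and dynamics, 9 were detected. Stmn1, which sequesters dimers, was at 283 and 292 TPM, and the end-binding genes Mapre1 and Mapre2 were at 157 and 151 TPM and at 103 and 105 TPM.

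All 5 severing genes were detected, with Katna1, the katanin catalytic subunit, at 17.4 and 19.5 TPM and Katnal1 at 7.46 and 8.09 TPM. All 8 partners of the gamma-tubulin complex were detected, led by Mzt1 at 63.0 and 61.0 TPM, Mzt2 at 24.6 and 23.1 TPM and Nedd1 at 16.9 and 18.1 TPM.

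Over all 85 partner genes, 66 were detected and 70 had enough counts to compare the hearts. Of these, 5 were lower in replicate 2 by 1.2-fold (Tuba3b, Vash2, Agbl2, Map6 and Clasp1) and 2 were higher (Map2 and Stmn2), against 7.26% and 7.97% of all genes tested. None reached 2-fold. The median log2 ratio of the 70 was 0.01, where that of the 10 tubulin isotypes was -0.19. Agbl2, Map6, Clasp1, Map2, Stmn2 and Mapt were named after their values were seen.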

How the data were processed

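Total RNA libraries of 2 newborn hearts were analysed from the gene and transcript tables of each library, which the authors deposited without pooling. Per the deposited read-me, quantification used mm10 and GENCODE M4. Column names match RSEM output. Aligner and versions: not given in the sources used here. The deposited expected counts are RSEM-style estimates of the reads of each gene, which need not be whole. The deposited TPM and FPKM values divide them by effective length and by depth. The deposited credibility bounds are a signal in TPM units, and the deposited percent column gives how much of a gene's TPM a transcript holds.

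Symbols, coordinates and coding sequences came from GENCODE M21, which matched 42462 of 43346 Ensembl genes by identifier. Counts were scaled with TMM (edgeR 4.0.16, R 4.3.3) and compared as log2 ratios with a prior count of 2, for genes averaging at least 50 counts. Their SE combines Poisson error and the posterior SD. It and the credibility intervals cover counting and assignment error only. Coding sequences were aligned with Biopython 1.88 (match 1, mismatch -1, gap opening -3, gap extension -0.5). Python 3.11.15, pandas 2.3.3 and numpy 2.4.6 were used. Alternatives were DESeq2 1.42.0 size factors, spike-in and other scalings, FPKM, posterior means, other filters, pseudocounts and word lengths, and each replicate left out.

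The members and gene lists were chosen with earlier results of these data known. Named genes were all members, the other tubulins, the 3 most abundant detected genes of each list, and for each member the gene and pseudogene sharing most words; a few genes and sequences under this rule are not reported here. A planned comparison of protein sequences was not used here, and coding sequences were compared in its place.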

Additional observations from a re-analysis of the deposited data

How the results depend on the processing

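With either replicate left out, only the interval condition for separated neighbours applies, and it held for 8 of 9 pairs. On counts with no division by length the interval condition was not applied, and 7 of 9 pairs were separated by sign and spread alone. There Tubb6 and Tuba1c stood above Tubb2a by mean count, and the order of Tuba1c and Tubb2a differed between the hearts (log2 0.13 and -0.06). The members' share of all TPM was 0.145% to 0.155% with a replicate left out, the alpha-to-beta ratio 1.75 to 1.83, and the share of Tuba4a-201 40.4% to 48.2%. With no division by length the alpha-to-beta ratio was 1.51, Tubb5 held 49.0% and Tubb4b 25.3% of the beta pool, and by counts Tuba4a-201 held 57.9% where it held 44.3% of TPM. The share of all genes past 1.2-fold, 15.2%, was 41.5% with no filter and 10.1% at a mean count of 200 or more. Past 2-fold, the share of 0.498% was 0.29% by TPM, 8.04% with no filter and 0.27% at 200 or more. Of the other values behind a comparison, 56 stayed within their spread or within 1.5 times. Among further values, mostly for single genes, 162 stayed and 19 moved. Of those that moved, Tubb2a held 10.6% of the beta pool with no division by length, where it held 13.7% of TPM. Tubb6 likewise held 11.7%, where it held 13.5% of TPM. Each shift is given with the setting that was changed. What set the size of each was not tested. Partner genes detected numbered 71 at 0.5 TPM and 49 at 5 TPM. No paired analysis was possible because there was 1 group. Leaving out a replicate leaves no difference between the pups, so it was not run. With 2 littermates, no value here measures the spread between litters.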
